A study of Mus musculus with 12 samples.

Results

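The genes described here are those of the growth hormone receptor to STAT5 axis of the liver. They were chosen by name, and 9 genes were listed: *Ghr*, *Jak2*, *Stat5a*, *Stat5b*, *Igf1*, *Igfals*, *Socs2*, *Cish* and *Bcl6*. All 9 were found in both count tables, among 23391 genes listed in either, and all 9 passed the filter on low counts. RNA-seq was carried out on livers of 12 male C57BL/6N mice, 3 in each of 4 groups. All 12 carried floxed HuR alleles, were 4 to 6 months old by the labels, and were injected with the adeno-associated virus AAV8. Mice of the 2 WT groups (chow WT and HFCF WT) received AAV8-Tbg-null, without Cre. Mice of the 2 groups labelled HuRHep-/- received AAV8-Tbg-Cre, in which the hepatocyte promoter Tbg drives the recombinase. Chow groups ate normal chow, and HFCF groups a diet rich in fructose, cholesterol and fat for 16 weeks. The study's methods instead describe an albumin-Cre cross and younger mice, and the tables do not show which account holds. Both accounts place the deletion in hepatocytes, so that other cells of the liver keep the gene. The chow and HFCF livers were deposited as separate tables, and an effect of diet cannot be told apart from any difference in how the tables were made.

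*Elavl1*, which encodes HuR, was higher in the livers labelled HuRHep-/-, which goes against the label. In CPM, read counts scaled to library size, it was at 30.9, 29.3 and 31 in chow WT livers and 42.8, 39.2 and 38.8 in chow livers labelled HuRHep-/-. In HFCF livers it was at 23.9, 24.1 and 27 in WT livers and 32.4, 32.2 and 34.2 in livers labelled HuRHep-/-. A count per gene takes in every exon, so the floxed part was not seen on its own. Each direction by genotype below is given by the label. Total counts per library ran from 30071731 to 35949203, and the lowest count of any of the 9 genes in any library was 116 (*Cish*). The library sizes behind CPM were adjusted with TMM factors over all 12 libraries.

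Growth hormone from the pituitary binds its receptor GHR on hepatocytes, and the kinase JAK2, bound to the receptor, phosphorylates the transcription factors STAT5A and STAT5B. In the liver these factors switch on *Igf1* and *Igfals*, whose products circulate together, and the feedback inhibitors *Socs2* and *Cish*. *Bcl6* encodes a repressor that binds many of the same sites and is itself lowered by STAT5. In male rodents growth hormone is released in pulses, and the response of *Cish*, *Socs2* and *Bcl6* to a pulse is fast. The pulse pattern, read through STAT5B, maintains much of the sex-biased gene expression of the liver.

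STAT5 dimers bind the motif TTCNNNGAA, which reads the same on both strands. RefSeq promoter windows of GRCm38.p6 (250 bases before to 50 after each annotated start, 300 in all) were available for 8 of the 9 genes, 14 windows in all. The motif lay in 5 of the 14 windows, those of *Cish*, *Bcl6* and *Igfals*, against 8.3% of all 32851 windows. *Cish* and *Bcl6*, whose levels moved most between livers of the same group, had several copies in a single window. The *Cish* window held 2, which begin at bases 251 and 262 of the window, at and just after the annotated start. The inner of the 2 *Bcl6* windows held 3, which begin at bases 83, 129 and 163. At least 2 copies were found in 0.457% of all windows, and at least 3 in 11 windows (0.0335%). The GENCODE annotation places the printed *Cish* stretch in the 5′ untranslated region of *Cish* and that of the inner *Bcl6* window in an intron of *Bcl6*. The outer *Bcl6* stretch lies upstream of the annotated gene, and both *Igfals* stretches lie in introns of the longer *Igfals* transcripts. The stretches around the matches are given below 5′ to 3′ along each gene, with the motif in capitals, and no binding was measured here.
*Cish*, chr9:107296654-107296683 (+ strand): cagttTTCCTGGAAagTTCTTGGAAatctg
*Bcl6*, inner start, chr16:23981284-23981533 (- strand): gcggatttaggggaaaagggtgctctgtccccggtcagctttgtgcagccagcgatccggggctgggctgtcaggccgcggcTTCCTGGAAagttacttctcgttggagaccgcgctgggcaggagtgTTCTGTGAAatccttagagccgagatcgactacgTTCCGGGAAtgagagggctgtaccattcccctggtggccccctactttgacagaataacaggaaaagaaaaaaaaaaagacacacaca
*Bcl6*, outer start, chr16:23988952-23988981 (- strand): tagcaaattagTTCTCAGAAttccagaggc
*Igfals*, chr17:24877598-24877627 (+ strand): gatctataatTTCTCAGAAaagaggctgag
*Igfals*, chr17:24878163-24878192 (+ strand): ctgccaggtgTTCCTAGAAgaggccctggg
The windows of *Ghr*, *Igf1*, *Jak2*, *Stat5a* and *Stat5b* held no match. That says only that these letters are not in these windows.

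HuR binds U-rich and AU-rich stretches of 3′ untranslated regions, so the word TTATTTATT was searched, on the transcribed strand, in the longest annotated 3′ untranslated region of each gene. It occurred in 7.6% of 21092 genes, and in 12.4% of the regions of at least 1000 bases. Among the 9 genes it was found in *Cish* and *Stat5b*. The first match of each is shown with its surroundings, the word in capitals, in GRCm38 coordinates.
*Cish*, chr9:107301377-107301406 (+ strand): tatacagtatTTATTTATTtattctccttg
*Stat5b*, chr11:100781518-100781547 (- strand): gtgtagtaaaTTATTTATTgggagatgagt
The shorter word ATTTA, found in 65.9% of all 3′ untranslated regions, was among the 9 genes most frequent in *Ghr*. There it had 8 copies in 1982 bases or 4.04 per 1000 bases, against a median of 1.56 in all 3′ untranslated regions of at least 1000 bases. *Igf1* (2.85) and *Jak2* (1.62) also lay above that median and the others of the 9 below it. The share of all regions with as many copies as *Ghr* was not computed.

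Per length of exon, *Igf1* and *Ghr* were the most abundant of the 9 transcripts and *Stat5a* the least. In CPM per 1000 bases of exon, the mean over 12 livers was 55.3 ± 9.52 (SD) for *Igf1*, 43.8 ± 7.75 for *Ghr* and 31.6 ± 7.88 for *Igfals*. *Stat5b*, the main STAT5 form of liver, stood at 5.55 ± 0.567 and *Stat5a* at 1.86 ± 0.343. *Bcl6* (3.77 ± 2.96), *Socs2* (2.37 ± 1.4), *Jak2* (2.31 ± 0.192) and *Cish* (2.11 ± 1.56) lay between them on the same scale, with spreads that overlap one another. *Jak2* varied least over the 12 livers, by 1.3 times between the highest and the lowest, and *Bcl6* most, by 17.7 times.

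**Figure D1:**
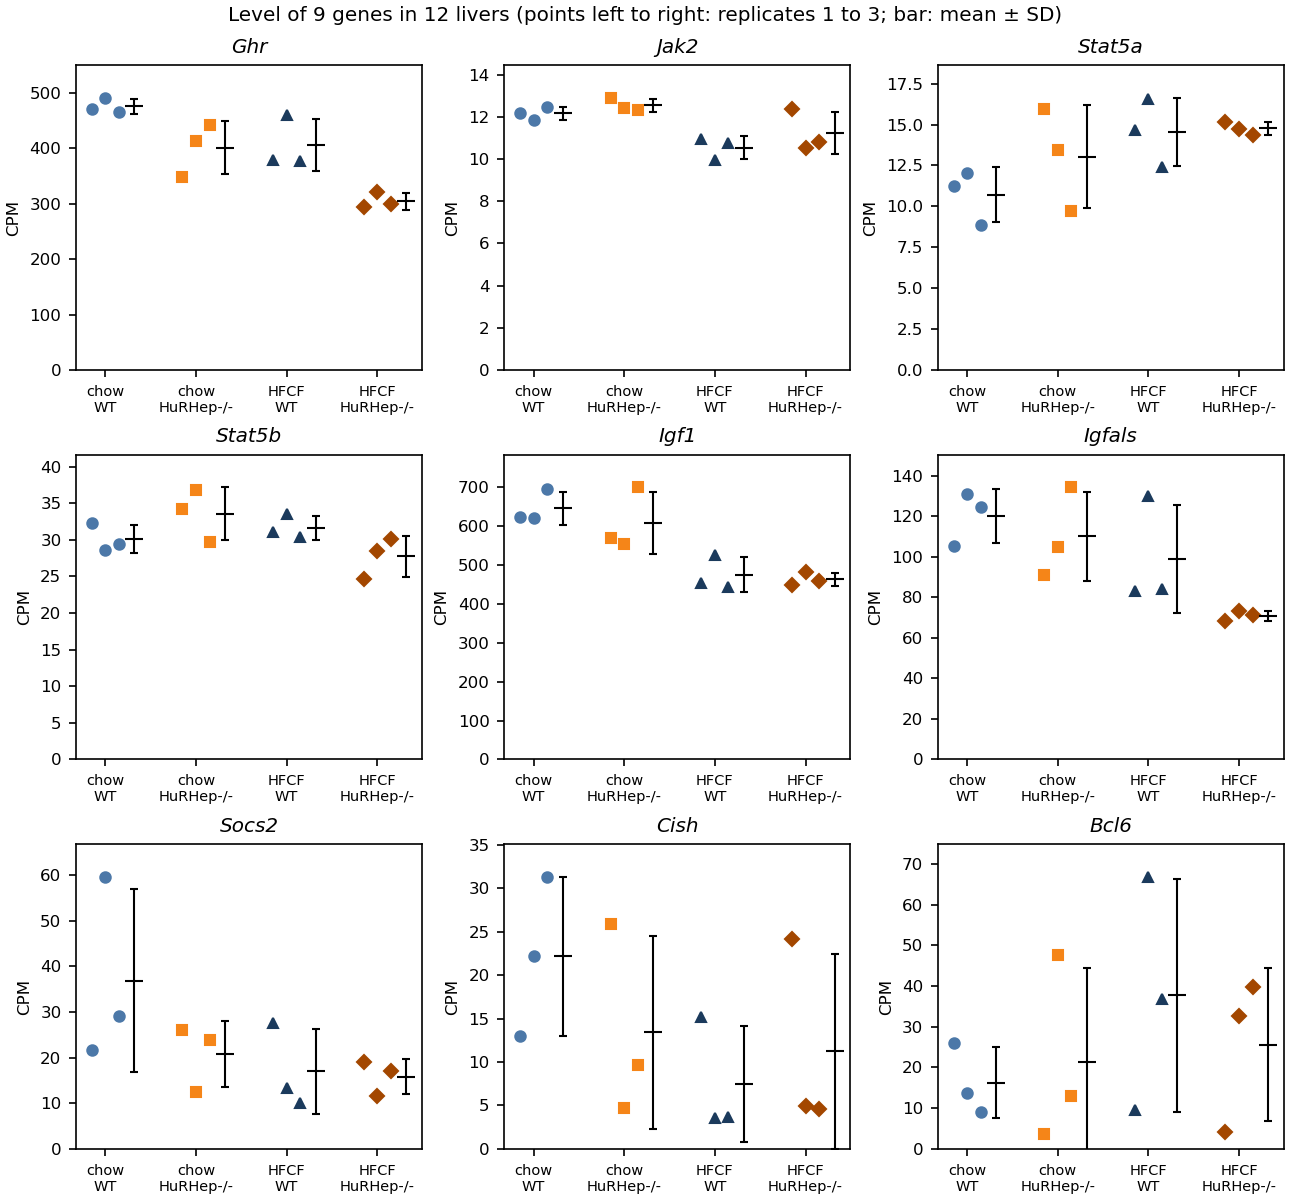
CPM (vertical axes, from 0) of the 9 genes in each of the 12 livers, by group, with points for replicates 1 to 3 and the mean ± SD beside them. SD bars are cut at 0. *Ghr* is lower in the livers labelled HuRHep-/- than in the WT livers of the same diet, *Igf1* is lower in HFCF than in chow, and *Socs2*, *Cish* and *Bcl6* spread widely inside every group.

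The receptor gene *Ghr* (ENSMUSG00000055737, chromosome 15, 3317760 to 3583492 of GRCm38) was lower in the livers labelled HuRHep-/-. In chow it was at 471, 491 and 465 CPM in WT livers and 349, 412 and 442 in livers labelled HuRHep-/-. In HFCF it was at 378, 459 and 377 in WT livers and 293, 321 and 298 in livers labelled HuRHep-/-. Within each diet the groups did not overlap, and the HFCF livers labelled HuRHep-/- lay below the other 9 livers. Over both diets *Ghr* fell by 0.33 on the log2 scale (standard error 0.0694, 95% interval -0.48 to -0.18, adjusted p = 0.00776 from limma), that is 1.26-fold lower. A two-sided exact permutation test of genotype within diets gave p = 0.005, the smallest it allows. Groups without overlap, lower in both diets, were found for 6.38% of all tested genes.

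By diet, *Ghr* passed the test in HFCF (log2 fold change -0.42, standard error 0.0945, 95% interval -0.65 to -0.20, adjusted p = 0.046 from limma) and not in chow (log2 fold change -0.25, standard error 0.0939, 95% interval -0.46 to -0.029, adjusted p = 0.169 from limma). The difference of the effect between the diets was -0.15 (95% interval -0.46 to 0.15, adjusted p = 0.642 from limma), so the diets were not shown to differ. The fall over both diets passed the threshold under each scaling, filter and weighting tried and in all 12 fits without 1 liver, with adjusted p from 0.00562 to 0.0211 in the latter. The call in HFCF was lost with upper-quartile scaling (adjusted p = 0.0517), without HFCF WT replicate 1 (0.0897) and without HFCF livers labelled HuRHep-/- replicates 1, 2 or 3 (0.157, 0.112 and 0.122).

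*Ghr* is a transcript of hepatocytes, and in bulk tissue fewer cells of a type and less RNA per cell cannot be told apart. The summed level of 10 hepatocyte markers (*Alb*, *Ttr*, *Cps1* and others, all 10 detected) ran from 102900.0 to 125439 CPM in chow WT livers and 83047 to 93012 in chow livers labelled HuRHep-/-. In HFCF it ran from 71286 to 82562 in WT livers and 65859.8 to 69209 in livers labelled HuRHep-/-. Within each diet the livers labelled HuRHep-/- lay below the WT livers, as for *Ghr*, and every chow liver lay above every HFCF liver. The median log2 fold change of these markers over both diets was -0.18, with 1 of 10 called (*Apob*, -0.25, adjusted p = 0.0259), against 10.3% of all genes called lower, and 0 to 2 without 1 liver. The part of this in the fall of *Ghr* was not tested.

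*Ghr* was also lower in HFCF than in chow, and these comparisons use the same 12 livers as those of genotype. In livers labelled HuRHep-/- it fell by 0.39 on the log2 scale (standard error 0.0982, 95% interval -0.61 to -0.18, adjusted p = 0.00917 from limma). In WT livers the log2 fold change was -0.24 (adjusted p = 0.099 from limma), and without HFCF WT replicate 2, the highest of its group, it was -0.33 (adjusted p = 0.0225). The order of the group means was thus chow WT, HFCF WT, chow HuRHep-/- and HFCF HuRHep-/-, at 475 ± 13.5, 405 ± 47, 401 ± 47.4 and 304 ± 14.9 CPM (SD, n = 3). The groups in the middle of that order overlapped.

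Of the 9 genes, 0 were called by genotype in chow, where 4.23% of all 13526 tested genes were. By genotype in HFCF it was 1 of 9, *Ghr*, against 6.79% of 14295, and over both diets 1 of 9, again *Ghr*, against 19.2% of 14535. In each case the share of the 9 was near or below that of all genes. At an unadjusted p under 0.05 by limma the numbers were 1, 2 and 2 of 9. Of all genes they were 3185 of 13526, 4218 of 14295 and 5048 of 14535. None of the 9 also reached a 1.5-fold change by genotype, which 2.24%, 3.62% and 5.07% of all genes did, with a total of at least 10 counts in each group. None of the 9 was called for a difference of its genotype effect between the diets, nor was any of 14535 genes by limma, where 2086 had an unadjusted p under 0.05, while limma with voom weights called 1, limma without a filter on low counts 1, and limma without HFCF WT replicate 3 called 41. The numbers called over all genes also changed without single livers. By genotype in chow 572 were called, and 138 or 90 without chow WT replicates 1 or 3 and 125 or 9 without chow HuRHep-/- replicates 1 or 2. In HFCF 971 were called, and 46 without HFCF WT replicate 1 and 31, 34 or 115 without HFCF HuRHep-/- replicates 1, 2 or 3. HFCF against chow called 1 of 9 in WT livers (*Igf1*), against 24.1% of all genes, and 4 of 9 in livers labelled HuRHep-/- (*Igf1*, *Ghr*, *Igfals* and *Stat5b*), against 38.9%. All 5 of these calls were falls. With a 1.5-fold change as well, 0 of 9 passed in WT livers, against 9.38% of all genes, and *Igfals* alone in livers labelled HuRHep-/-, against 19.1%. By genotype 1 of 9 genes was lower without overlap in chow (*Ghr*), against 13.9% of all genes, and 3 of 9 in HFCF (*Ghr*, *Igfals* and *Stat5b*), against 17.4%. From chow to HFCF, 3 of 9 were lower without overlap in WT livers (*Ghr*, *Jak2* and *Igf1*), against 19.8%, and *Stat5a* was higher, against 17.7%. In livers labelled HuRHep-/- 3 of 9 were lower (*Ghr*, *Igf1* and *Igfals*), against 27.2%. The median log2 fold change of the 9 was -0.13 by genotype in chow, -0.048 in HFCF and -0.25 over both diets, against 0.0047, -0.0015 and 0.014 of all genes.

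**Figure D2:**
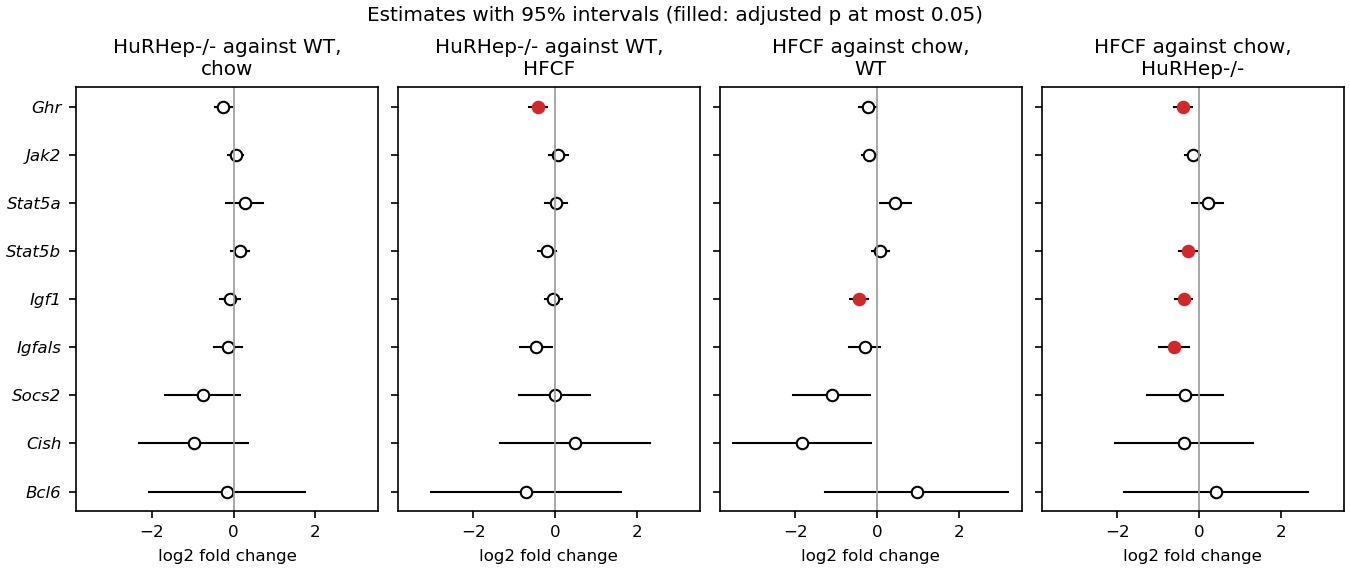
Log2 fold changes (horizontal axes) of the 9 genes in 4 comparisons, with 95% intervals as lines and filled points at an adjusted p of at most 0.05. *Ghr* is filled in HFCF by genotype, *Igf1* in both diet comparisons, and the intervals of *Socs2*, *Cish* and *Bcl6* are wider than those of the other genes.

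*Jak2*, *Stat5a* and *Stat5b*, the kinase and the factors that act at the receptor, did not pass the test by genotype. *Jak2* (ENSMUSG00000024789, chromosome 19, 29251828 to 29313080), the receptor-bound kinase, was at 12.2, 11.9 and 12.5 CPM in chow WT and 12.9, 12.4 and 12.3 in chow livers labelled HuRHep-/-. The HFCF values were 11, 9.95 and 10.7 in WT and 12.4, 10.5 and 10.8 in livers labelled HuRHep-/-. Its log2 fold change over both diets was 0.066 (95% interval -0.059 to 0.19, adjusted p = 0.441 from limma). Against chow it was at -0.21 in WT livers, where HFCF and chow did not overlap (adjusted p = 0.0806), and at -0.16 in livers labelled HuRHep-/- (adjusted p = 0.135).

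*Stat5a* (ENSMUSG00000004043, chromosome 11, 100859351 to 100885169) was at 11.3, 12 and 8.86 CPM in chow WT, 16, 13.4 and 9.69 in chow livers labelled HuRHep-/-, 14.6, 16.6 and 12.4 in HFCF WT and 15.2, 14.7 and 14.4 in HFCF livers labelled HuRHep-/-. Each chow WT liver lay below every HFCF WT liver. That difference was 0.44 on the log2 scale (adjusted p = 0.0835 from limma), and it passed the test when chow HuRHep-/- replicate 3, the low liver of a group outside the comparison, was left out of the shared fit (adjusted p = 0.035). Livers labelled HuRHep-/- differed from WT in *Stat5a* by 0.27 on the log2 scale in chow (adjusted p = 0.441) and by 0.015 in HFCF (adjusted p = 0.949).

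*Stat5b* (ENSMUSG00000020919, chromosome 11, 100780731 to 100850724) was at 32.3, 28.7 and 29.4 CPM in chow WT, 34.1, 36.8 and 29.7 in chow livers labelled HuRHep-/-, 31.1, 33.5 and 30.4 in HFCF WT and 24.6, 28.5 and 30.1 in HFCF livers labelled HuRHep-/-. The lowest 2 of the 12 livers were HFCF livers labelled HuRHep-/-, and the highest 2 were chow livers of the same label. Set against WT, the chow livers labelled HuRHep-/- differed by 0.16 on the log2 scale (adjusted p = 0.359 from limma). The HFCF livers so labelled differed by -0.21 with no overlap (adjusted p = 0.176). The difference between those effects was -0.35 (95% interval -0.64 to -0.049, unadjusted p = 0.0261, adjusted p = 0.288 from limma). In livers labelled HuRHep-/- *Stat5b* fell by 0.27 on the log2 scale from chow to HFCF (adjusted p = 0.0413 from limma). This call was lost with upper-quartile scaling (0.127), with a filter of 10 counts in every library (0.0662) and in 6 of the 12 fits without 1 liver, namely without chow WT replicate 3 (0.0531), without chow HuRHep-/- replicate 1 (0.0982), without chow HuRHep-/- replicate 2 (0.154), without HFCF WT replicate 1 (0.0533), without HFCF HuRHep-/- replicate 1 (0.17) and without HFCF HuRHep-/- replicate 2 (0.0696), each with its adjusted p. *Stat5a* and *Stat5b* share 16.1% and 16.2% of their words of 31 bases with other genes, mostly with each other. The sum of both genes had a log2 fold change of -0.12 in that comparison (adjusted p = 0.345).

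*Igf1* (ENSMUSG00000020053, chromosome 10, 87858265 to 87937042), which encodes the main hormone made under growth hormone, followed diet. It was at 623, 619 and 694 CPM in chow WT and 568, 554 and 699 in chow livers labelled HuRHep-/-, and at 454, 526 and 444 in HFCF WT and 448, 481 and 459 in HFCF livers labelled HuRHep-/-. Every HFCF liver lay below every chow liver. *Igf1* fell from chow to HFCF in WT livers (log2 fold change -0.45, standard error 0.0995, 95% interval -0.66 to -0.23, adjusted p = 0.00871 from limma) and in livers labelled HuRHep-/- (log2 fold change -0.38, standard error 0.0995, 95% interval -0.60 to -0.17, adjusted p = 0.0109 from limma). Both calls passed the threshold in every fit without 1 liver, with adjusted p up to 0.038 and 0.0424. By genotype its log2 fold change over both diets was -0.064 (95% interval -0.22 to 0.090, adjusted p = 0.553 from limma). The 10 hepatocyte markers were lower in these diet comparisons as well, all 10 by their estimates. Their median log2 fold change was -0.63 in WT livers and -0.47 in livers labelled HuRHep-/-, with 5 of 10 called lower in each, against 12.8% and 19.1% of all genes. In WT livers the number was 2 without chow WT replicates 1 or 3 or HFCF WT replicates 1 or 3, and 3 without chow WT replicate 2. For livers labelled HuRHep-/- it was 2 without chow HuRHep-/- replicate 3 or HFCF HuRHep-/- replicate 1. Their part in the fall of *Igf1* was not tested. *Igf1os* lies over *Igf1* on the other strand and was counted apart, at 1.81 to 6.6 CPM.

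*Igfals* (ENSMUSG00000046070, chromosome 17, 24865997 to 24882010) encodes the acid-labile subunit, which holds IGF1 in the circulation. It was at 105, 131 and 125 CPM in chow WT and 91.2, 105 and 134 in chow livers labelled HuRHep-/-, and at 83.2, 129.9 and 84.2 in HFCF WT and 68.2, 73.1 and 71.4 in HFCF livers labelled HuRHep-/-. The HFCF livers labelled HuRHep-/- were the lowest 3 of the 12, and HFCF WT replicate 2 stood with the chow livers, as it did for *Ghr*. From chow to HFCF *Igfals* fell in livers labelled HuRHep-/- (log2 fold change -0.62, standard error 0.172, 95% interval -0.99 to -0.24, adjusted p = 0.0153 from limma), which is 1.53-fold lower. Without chow HuRHep-/- replicate 3, the highest of all livers, this was -0.47 (adjusted p = 0.0636). In WT livers the log2 fold change was -0.31 (adjusted p = 0.215), and -0.52 without HFCF WT replicate 2 (adjusted p = 0.0198). By genotype it was -0.47 in HFCF, with no overlap (adjusted p = 0.121), and -0.29 over both diets (adjusted p = 0.108 from limma). Without chow HuRHep-/- replicate 3 the latter was -0.37 (adjusted p = 0.0443).

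The fast-responding genes *Socs2*, *Cish* and *Bcl6* varied widely between livers of the same group. *Cish* (ENSMUSG00000032578, chromosome 9, 107296026 to 107302784), whose product blocks STAT5 at the receptor, was at 13, 22.2 and 31.2 CPM in chow WT and 25.9, 4.67 and 9.6 in chow livers labelled HuRHep-/-. In HFCF livers *Cish* was at 15.2, 3.57 and 3.69 in WT and 24.1, 4.98 and 4.55 in livers labelled HuRHep-/-. A single liver stood above the other 2 in each group except chow WT.

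*Bcl6* (ENSMUSG00000022508, chromosome 16, 23965052 to 23988852) ran the other way. It was at 25.9, 13.8 and 8.96 CPM in chow WT, 3.77, 47.5 and 13 in chow livers labelled HuRHep-/-, 9.61, 66.8 and 36.8 in HFCF WT and 4.21, 32.7 and 39.7 in HFCF livers labelled HuRHep-/-. In each of the 4 groups the liver with the most *Cish* had the least *Bcl6*, and the liver with the least *Cish* had the most *Bcl6*. The replicate with the most *Cish* was 3 in chow WT and 1 in the other groups. *Socs2* (ENSMUSG00000020027, chromosome 10, 95385362 to 95417180), the other feedback inhibitor, was at 21.8, 59.6 and 29.1 CPM in chow WT, 25.9, 12.5 and 23.8 in chow livers labelled HuRHep-/-, 27.6, 13.3 and 10.1 in HFCF WT and 19, 11.6 and 17 in HFCF livers labelled HuRHep-/-. It was highest in the liver with the most *Cish* in every group but chow WT, where replicate 2 stood at more than any other liver.

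**Figure D3:**
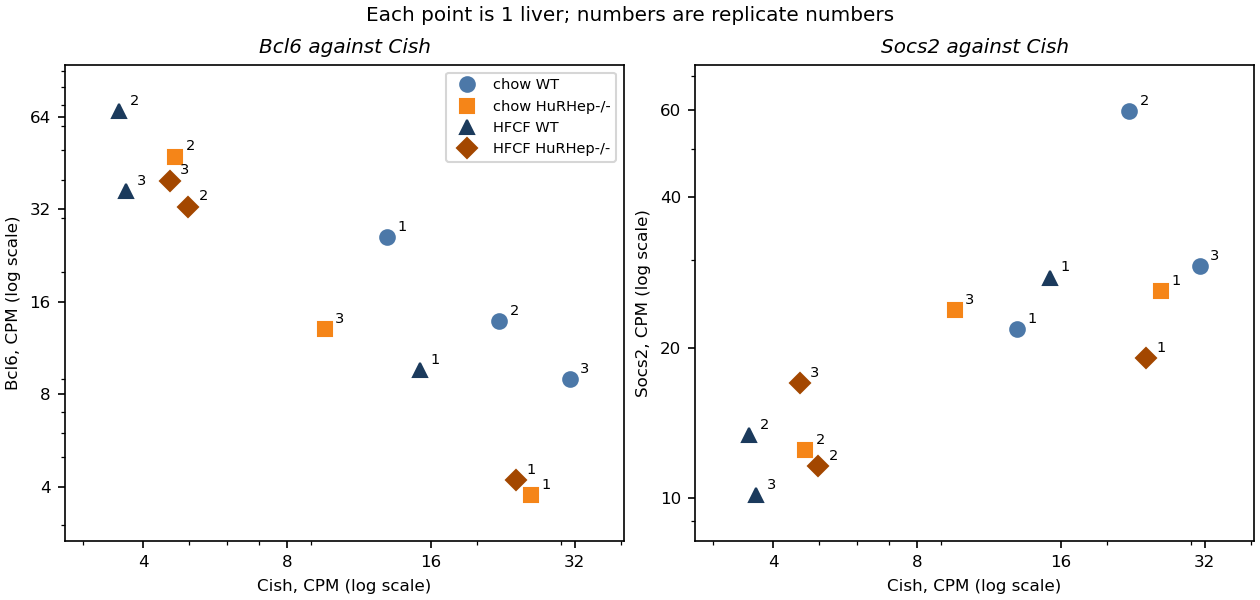
*Bcl6* (left) and *Socs2* (right) against *Cish*, all in CPM on log axes, with 1 point per liver, marked by group and replicate number. *Bcl6* falls as *Cish* rises, from 66.8 CPM at the lowest *Cish* to 3.77 CPM in a liver with *Cish* at 25.9, while *Socs2* rises with *Cish*.

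Correlations of log2 CPM over the 12 livers were computed for all 36 pairs of the 9 genes, with Benjamini-Hochberg adjustment over the pairs. Points share the library and its scaling factor. For *Cish* and *Bcl6* Pearson's and Spearman's coefficients were r = -0.90, permutation p = 0.00024, adjusted p = 0.00432, and rho = -0.92, permutation p = 0.0001, adjusted p = 0.0036 (two-sided, 100000 resamples, n = 12). Without the 2 livers farthest from the median of *Cish* r was -0.87. Within chow r was -0.81 and rho -0.77 (exact permutation p = 0.0528 and 0.103, n = 6). Within HFCF r was -0.98 and rho -0.94 (exact permutation p = 0.00417 and 0.0167, n = 6), where 2 livers with high *Cish* stood apart from the other 4. With each group's mean removed r over the 12 livers was -0.98. Among 10184 genes with a mean of at least 100 normalized counts, *Bcl6* ranked 1 from the lowest r with *Cish*.

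*Cish* and *Socs2* rose together (r = 0.80, permutation p = 0.0017, adjusted p = 0.0153, and rho = 0.78, permutation p = 0.00356, adjusted p = 0.032, n = 12). Within diets this was r = 0.73 in chow and 0.76 in HFCF (exact permutation p = 0.115 and 0.0889, n = 6), and without the 2 livers farthest from the median of *Socs2* it was 0.83. *Socs2* and *Bcl6* had r = -0.59 (permutation p = 0.0434, adjusted p = 0.174, n = 12). The receptor and the genes of the IGF complex were compared as well. *Ghr* and *Igfals* had r = 0.93, permutation p = 4.00e-05, adjusted p = 0.00144, and rho = 0.87, permutation p = 0.00042, adjusted p = 0.00756 (n = 12), with r = 0.77 within chow and 0.94 within HFCF (exact permutation p = 0.0542 and 0.00278, n = 6) and 0.89 without the 2 livers farthest from the median of *Ghr*. *Igf1* and *Igfals* had r = 0.84, permutation p = 0.00143, adjusted p = 0.0153, and rho = 0.80, permutation p = 0.00324, adjusted p = 0.032 (n = 12), with r = 0.78 within chow and 0.79 within HFCF (exact permutation p = 0.107 and 0.114, n = 6), and r = 0.77 without the 2 farthest livers. Their rho was 0.77 within chow and 0.26 within HFCF (exact permutation p = 0.103 and 0.658, n = 6). For *Ghr* with *Igfals* rho was 0.60 within chow and 0.94 within HFCF (exact permutation p = 0.242 and 0.0167). For *Cish* with *Socs2* it was 0.77 and 0.66 (exact permutation p = 0.103 and 0.175). The 4 pairs *Cish* with *Bcl6*, *Cish* with *Socs2*, *Ghr* with *Igfals* and *Igf1* with *Igfals* had an adjusted p of at most 0.05 by both coefficients. By Pearson's alone *Ghr* with *Igf1* (0.75) and *Stat5a* with *Igf1* (-0.73) passed too (adjusted p = 0.0446 and 0.0446 by permutation, n = 12). How many other gene pairs would pass was not computed. Among 10184 genes with a mean of at least 100 normalized counts, *Socs2* ranked 12 from the highest r with *Cish*. For *Ghr* that rank was 14 with *Igfals* and 1735 with *Igf1*. *Ghr* with *Igf1* had r = 0.58 and rho = 0.37 within chow (exact permutation p = 0.235 and 0.497, n = 6) and r = 0.61 and rho = 0.37 within HFCF (exact permutation p = 0.185 and 0.497, n = 6). *Stat5a* with *Igf1* had r = -0.93 and rho = -0.89 within chow (exact permutation p = 0.0208 and 0.0333, n = 6) and the other sign within HFCF, at r = 0.74 and rho = 0.60 (exact permutation p = 0.14 and 0.242, n = 6). Its r was at -0.40 without the 2 farthest livers.

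In their spread between livers of the same group *Bcl6*, *Cish* and *Socs2* stood apart from most genes. The pooled within-group SD of log2 CPM was 1.52 for *Bcl6*, 1.14 for *Cish* and 0.63 for *Socs2*, against a median of 0.128 over 10185 genes with a mean of at least 100 normalized counts. They ranked 8, 31 and 160 from the largest, so that 0.0687%, 0.295% and 1.56% of the genes had a larger SD. *Ghr* (0.126), *Igf1* (0.126) and *Stat5b* (0.123) lay near the median, and *Jak2* (0.077) below it.

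**Figure D4:**
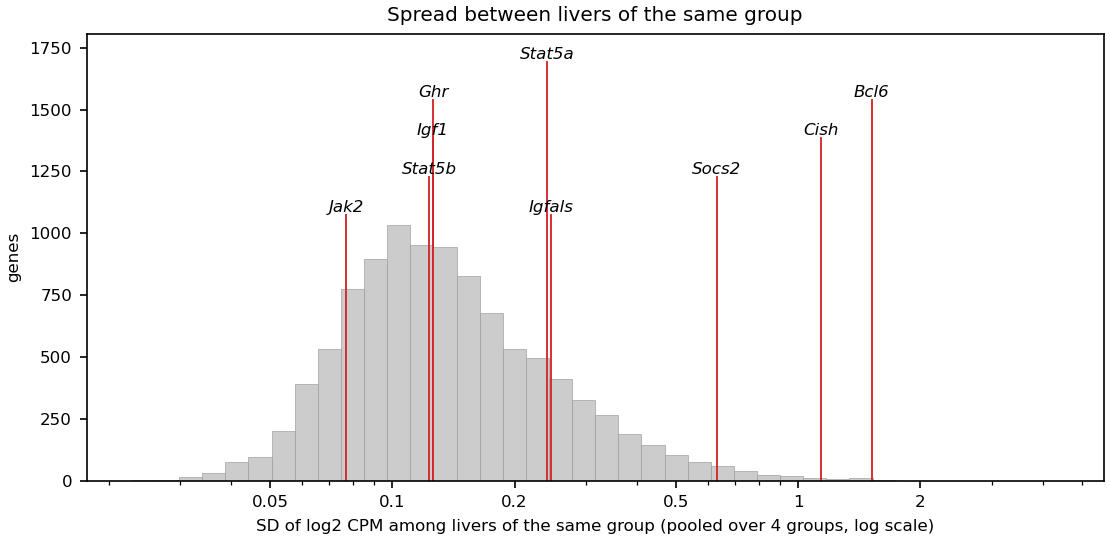
Histogram of the within-group SD of log2 CPM (horizontal log axis) over 10185 genes (vertical axis, number of genes), with lines at the 9 genes. *Bcl6*, *Cish* and *Socs2* lie in the right tail, at 1.52, 1.14 and 0.63, and *Jak2*, *Stat5b*, *Igf1* and *Ghr* in the bulk.

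With this spread, differences between groups of 3 were poorly resolved. By genotype in chow the log2 fold change was -0.98 for *Cish* (95% interval -2.32 to 0.37), -0.76 for *Socs2* (-1.67 to 0.16) and -0.15 for *Bcl6* (-2.05 to 1.76), with adjusted p from 0.291 to 0.934 by limma. In HFCF it was 0.47, -0.016 and -0.72, with adjusted p from 0.662 to 0.982. The intervals do not show that the genotypes were alike. From chow to HFCF in WT livers *Cish* was at -1.83 (adjusted p = 0.104 from limma) and *Socs2* at -1.11 (adjusted p = 0.0795). Both passed the test without HFCF WT replicate 1, the liver of its group with the most *Cish*, at -2.51 (adjusted p = 0.0481) and -1.53 (adjusted p = 0.0309). In livers labelled HuRHep-/- they were at -0.36 and -0.35 (adjusted p = 0.735 and 0.546). *Socs2* shares 8.57% of its words of 31 bases with other genes, mostly *Gm9847*.

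Genes of the circadian clock and *Socs3*, the STAT3-driven feedback inhibitor, also differed between livers of the same group. These genes were chosen after their values were seen. In the 3 groups in which replicate 1 had the most *Cish*, the same liver had the least *Per1* and *Ciart*. *Per1* was at 19, 43.4 and 42.8 CPM in chow livers labelled HuRHep-/-, 20.1, 37.6 and 34.8 in HFCF WT and 10.6, 40.4 and 44 in HFCF livers labelled HuRHep-/-. *Ciart* was at 5.74, 16.5 and 35.9, 9.05, 22.6 and 17.9 and 5.41, 13.5 and 19.1, and *Socs3* at 28.2, 14.9 and 11.8, 7.81, 5.89 and 4.83 and 22.4, 12.4 and 9.0, highest in replicate 1 each time. In chow WT *Per1* was at 34.8, 33.5 and 37.6 and *Ciart* at 23.8, 22.3 and 28.3, both highest in the liver with the most *Cish*. *Socs3* was at 12.1, 7.92 and 10.1 in chow WT, highest in replicate 1, the liver of that group with the least *Cish*. *Dbp* and *Nr1d1*, other clock genes, did not follow *Per1* and *Ciart*. *Dbp* was at 116, 201 and 213 CPM in chow livers labelled HuRHep-/-, 165, 178 and 117 in HFCF WT and 177, 164 and 167 in HFCF livers labelled HuRHep-/-, lowest in replicate 1 only in the first of these. *Nr1d1* was at 111, 107 and 73.3, 67.7, 57.4 and 29.9 and 87, 77.8 and 60.1 in the same order, highest in replicate 1 each time. In chow WT *Dbp* was at 195, 226 and 197 and *Nr1d1* at 99.7, 87.2 and 57.5. Replicate 1, with the least *Cish* of that group, thus had its least *Dbp* and its most *Nr1d1*. The time of sampling is not given in the sources used here. The part of any of these in the spread of *Cish* and *Bcl6* was not tested.

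As a description, the genes whose log2 CPM was most like each of these over the 12 livers, among 10185 genes with a mean of at least 100 normalized counts, were ranked by Pearson's r. Those nearest to *Ghr* were *Crebl2* (0.99), *1300017J02Rik* (0.98) and *Adtrp* (0.97). Those nearest to *Igf1* were *Hagh* (0.97), *Rc3h1* (0.97) and *Mrpl15* (0.97), and to *Socs2* *Rnf39* (0.89), *Rbm48* (0.84) and *Ptch1* (0.84). For *Cish*, added after its values were seen, they were *Rgs3* (0.97), *Foxa2* (0.93) and *Osgin1* (0.88). *Foxa2* encodes a transcription factor of the hepatocyte that works with STAT5 at many sites.

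Around the receptor, 36 other genes of growth hormone signalling were listed (adaptors, kinases, phosphatases, SOCS and PIAS inhibitors), and all 36 were tested over both diets. By genotype 0 of 35 were called in chow (against 4.23% of all genes), 3 of 36 in HFCF (all higher, against 6.79% of all genes) and 7 of 36 over both diets, 6 higher and 1 lower, against 19.2% of all genes. The list's median log2 fold change over both diets was 0.033, and that of all tested genes 0.014. In what follows the value beside a gene of a list, before its adjusted p, is its log2 fold change. Those that rose included the kinases *Mapk3* (0.32, adjusted p = 0.00378 from limma) and *Src* (0.75, adjusted p = 0.0198), the ubiquitin ligase subunit *Btrc*, which takes part in receptor degradation (0.23, adjusted p = 0.0164), *Stat3* (0.44, adjusted p = 0.0217) and *Socs3* (0.97, adjusted p = 0.0206). The phosphatase *Ptpn11* fell (-0.13, adjusted p = 0.0384). Without chow WT replicate 3 or HFCF HuRHep-/- replicate 1 the number called over both diets was 4. In HFCF it was 0 without HFCF WT replicate 1 or any HFCF liver labelled HuRHep-/-, and 1 without HFCF WT replicate 2. HFCF against chow called 20 in livers labelled HuRHep-/- (9 higher and 11 lower), against 38.9% of all genes, and 13 without HFCF HuRHep-/- replicate 1. In WT livers it called 11 (4 higher and 7 lower), against 24.1% of all genes, and 4 without chow WT replicate 1 or 7 without chow WT replicate 3 or HFCF WT replicate 3.

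Of 15 other genes of the IGF system, 13 were tested over both diets and 2 were called by genotype, both higher, against 19.2% of all genes. *Igf2r*, a receptor that clears IGF2, was at 0.28, adjusted p = 0.00187, and *Igf2*, a fetal growth factor, at 1.17, adjusted p = 0.01 from limma. *Igf2* was called in HFCF (2.39, adjusted p = 0.0235), but not without HFCF WT replicate 1 or any HFCF liver labelled HuRHep-/-, where 0 genes of the list were called. Without HFCF WT replicate 3 it was 3, and 1 in the difference between the diets. From chow to HFCF 2 were called in WT livers, both lower (*Igfbp2*, -0.96, adjusted p = 0.00809, and *Insr*, -0.41, adjusted p = 0.0074), against 24.1% of all genes, and 5 without HFCF WT replicate 2. In livers labelled HuRHep-/- 10 were called, 7 higher, among them the binding proteins *Igfbp3* (1.44, adjusted p = 0.00168) and *Igfbp7* (1.05, adjusted p = 0.00161), and 3 lower, against 38.9% of all genes. Of 12 related cytokine receptors 2 of 11 tested were called by genotype over both diets, *Lepr*, the leptin receptor (1.08, adjusted p = 0.0209), and *Csf2rb* (0.50, adjusted p = 0.0383), against 19.2% of all genes. In HFCF it was *Osmr*, the oncostatin M receptor (0.82, adjusted p = 0.0493), against 6.79%. Only 1 of the list was called over both diets in 10 of the 12 fits without 1 liver, all but those without chow WT replicate 2 or chow HuRHep-/- replicate 3. In HFCF 0 were called without HFCF WT replicate 1 or any liver labelled HuRHep-/-, and 2 without HFCF WT replicate 3.

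Of 18 listed transcription factors and cofactors that shape the hepatic response to growth hormone, 5 were called by genotype over both diets, all lower, against 10.3% of all genes called lower. Among them were *Onecut1* (-1.01, adjusted p = 0.0432 from limma), *Onecut2* (-0.24, adjusted p = 0.00451), *Nr3c1*, the glucocorticoid receptor (-0.17, adjusted p = 0.0274), and the deacetylase *Hdac3* (-0.18, adjusted p = 0.0189). The list's median over both diets was -0.16, and without chow HuRHep-/- replicate 2 the number called was 2. *Hnf4a*, the master regulator of the hepatocyte, was at -0.041, adjusted p = 0.669 by genotype and fell from chow to HFCF, at -0.51, adjusted p = 0.00256 in WT livers and -0.47, adjusted p = 0.00199 in livers labelled HuRHep-/-. In these diet comparisons 10 (2 higher) and 5 (1 higher) of the 18 were called, against 24.1% and 38.9% of all genes, the first number being 6 without HFCF WT replicate 3.

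Many male-biased genes of the liver depend on pulsatile growth hormone and STAT5B. In HFCF 5 of 17 tested were called by genotype, all lower, against 3.95% of all genes, and the list's median log2 fold change was -0.98. They were the complement component *C6* (-1.65, adjusted p = 0.0179 from limma), the P450 gene *Cyp2d9* (-1.10, adjusted p = 0.0184), *Susd4* (-2.29, adjusted p = 0.0179), *Ugt2b38* (-1.98, adjusted p = 0.0428) and *Keg1* (-0.61, adjusted p = 0.0254). *Susd4* was at 15.5, 19.4 and 8.67 CPM in HFCF WT and 2.24, 3.45 and 2.96 in HFCF livers labelled HuRHep-/-, with no overlap. In chow 1 of 18 was called, *Mup20*, a urinary protein gene, and it was higher (1.13, adjusted p = 0.0131), against 4.23% of all genes, with a list median of -0.054, and 0 were called without chow WT replicates 1 or 3 or chow HuRHep-/- replicates 1 or 2, and 3 without chow HuRHep-/- replicate 3. The difference between the diets was called for 0 of 18 (list median -1.35).

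HFCF WT replicate 3 stood apart on these genes. *Hsd3b5*, a steroid-metabolising male-biased gene, was at 73.2, 207 and 5.72 CPM in HFCF WT and 1.82, 5.5 and 8.35 in HFCF livers labelled HuRHep-/-, against 309, 344 and 245 in chow WT. Without that liver 11 male-biased genes were called lower by genotype in HFCF and 3 in the difference between the diets. Without HFCF WT replicate 1 or HFCF HuRHep-/- replicates 1 or 2 the number called in HFCF was 0, and without HFCF HuRHep-/- replicate 3 it was 1. Over both diets 5 of 18 were called, all lower, against 10.3% of all genes called lower, and 10 without HFCF WT replicate 3.

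From chow to HFCF 16 of 18 male-biased genes fell in livers labelled HuRHep-/-, against 19.1% of all genes (list median -1.83, 14 to 17 called without 1 liver). In WT livers 6 fell, against 12.8% of all genes (list median -0.96), and 10 were called, 9 of them lower, without HFCF WT replicate 2. Female-biased genes were called higher in 14 and lower in 2 of 25 in livers labelled HuRHep-/- (list median 0.96), against 19.7% of all genes called higher. In WT livers they were called higher in 5 and lower in 3, against 11.3% called higher. The totals were 10 without chow HuRHep-/- replicate 3 and 4 without chow WT replicate 1. A filter of 10 counts in every library left 11 of the list tested, of which 6 were called higher and 1 lower in livers labelled HuRHep-/-, and 4 and 1 in WT livers, against 20.5% and 12.9% of all genes called higher under that filter. It removes list members with few counts, so these numbers and those without it have different denominators. Many of these genes have few counts in male liver.

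By genotype in HFCF 3 of 24 female-biased genes were called, all higher (against 2.85% of all genes). They were the P450 genes *Cyp2a4* (6.21, adjusted p = 0.0243 from limma) and *Cyp2a22* (2.27, adjusted p = 0.0444), and *Prom1* (1.03, adjusted p = 0.0427). *Cyp2a4* was at 0.686, 0.427 and 8.61 CPM in HFCF WT and 155, 81.1 and 88.9 in HFCF livers labelled HuRHep-/-, and at 0.234 to 2.09 in the 6 chow livers. HFCF WT replicate 3 was the highest of the WT livers. Without it 7 genes of the list were called in HFCF, and without HFCF WT replicate 1 or HFCF HuRHep-/- replicates 1 or 2 the number was 0, with 1 without HFCF WT replicate 2 or HFCF HuRHep-/- replicate 3. In chow 0 of 20 were called, against 4.23% of all genes, with 1 without chow WT replicates 1 or 3 and 2 without chow HuRHep-/- replicate 3. Over both diets 4 of 25 were, all higher, with *Abcd2* (1.06, adjusted p = 0.0236) among them, against 19.2% of all genes. The number was 1 without chow HuRHep-/- replicates 1 or 2, HFCF WT replicate 2 or HFCF HuRHep-/- replicate 1, and 2 without HFCF HuRHep-/- replicate 2 or with voom weights.

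**Figure D5:**
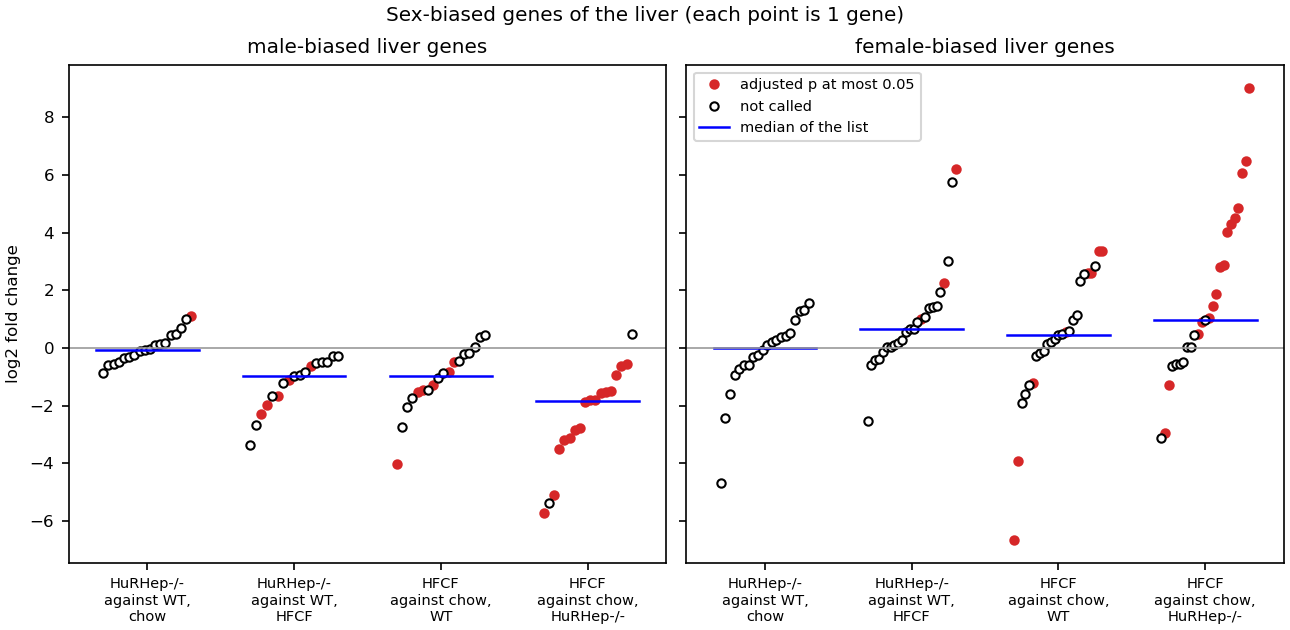
Log2 fold changes (vertical axis) of listed male-biased genes (left) and female-biased genes (right) in 4 comparisons, with filled points at an adjusted p of at most 0.05 and a line at each list's median. The male-biased median is -1.83 from chow to HFCF in livers labelled HuRHep-/-, with 16 of 18 genes filled below 0.

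The acute phase response of the liver runs through STAT3, a relative of STAT5, and 24 of its genes were listed. In chow 9 were called by genotype, 8 higher and 1 lower, against 4.23% of all genes. *Itih3* (1.31, adjusted p = 0.00801 from limma), *Itih4* (0.93, adjusted p = 0.0131) and *Mt1*, a metallothionein (2.44, adjusted p = 0.0131), were higher, and *Hpx*, which encodes the heme carrier hemopexin, was lower (-0.91, adjusted p = 0.0213). The number was 0 without chow HuRHep-/- replicate 2, 1 without chow WT replicate 3 or chow HuRHep-/- replicate 1, and 3 without chow WT replicate 1. In HFCF 3 were called, 1 of them higher, against 6.79% of all genes, with 8 without HFCF WT replicate 3 and 1 without HFCF WT replicate 1 or any liver labelled HuRHep-/-. Over both diets 13 were called, 12 of them higher, against 19.2% of all genes (list median 0.49). *Stat3* itself was at 63.7, 76.6 and 58.7 CPM in chow WT and 109, 78.5 and 67.3 in chow livers labelled HuRHep-/-, and at 54.5, 63.5 and 54.8 and 95.7, 72.2 and 87 in HFCF. *Stat3* lies next to *Stat5a* and overlaps it on the other strand.

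Of 17 clock genes tested, 2 were called by genotype over both diets, *Cry1* (-0.85, adjusted p = 0.00435 from limma) and *Nfil3* (-0.55, adjusted p = 0.0141), both lower, against 19.2% of all genes. In chow it was 0 of 16, against 4.23%, with 1 without chow WT replicate 2 or chow HuRHep-/- replicate 3. In HFCF it was 2 of 16, against 6.79%, with 0 without HFCF WT replicate 1 or any liver labelled HuRHep-/- and 1 without HFCF WT replicates 2 or 3. Of 13 genes of the fasting response, *Fbxo21* was called in chow (0.48, adjusted p = 0.04), against 4.23% of all genes, with 0 without chow WT replicate 3 or chow HuRHep-/- replicates 1 or 2. The list had 0 in HFCF, with 1 without HFCF WT replicate 3, and 0 over both diets, with 1 without HFCF WT replicate 3 and 2 without HFCF HuRHep-/- replicate 3.

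Markers of other liver cells moved with the groups as well. The summed level of 10 Kupffer cell markers was 199 to 256 CPM in chow WT, 267 to 396 in chow livers labelled HuRHep-/-, 291 to 487 in HFCF WT and 451 to 688 in HFCF livers labelled HuRHep-/-. That of 9 markers of recruited macrophages was 84 to 132, 109 to 153, 117 to 273 and 298 to 455 in the same order, of 10 stellate cell markers 260.4 to 299, 203 to 303, 296 to 546 and 522 to 616, and of 7 cholangiocyte markers 10.3 to 17, 11.3 to 17, 11.1 to 16.2 and 24.4 to 37.6. The HFCF livers labelled HuRHep-/-, which had the least *Ghr* and *Igfals*, had sums of recruited macrophage and cholangiocyte markers above those of every other liver. Over both diets 5 of 10 Kupffer cell, 5 of 9 recruited macrophage, 0 of 10 stellate cell and 2 of 6 tested cholangiocyte markers were called by genotype, all higher, against 19.2% of all genes called in either direction. Among them were *Marco*, a scavenger receptor of Kupffer cells (1.24, adjusted p = 0.00703 from limma), *Cd5l* (0.66, adjusted p = 0.0269), *C1qb* (0.58, adjusted p = 0.0324) and *Clec4f* (0.39, adjusted p = 0.0406). The macrophage genes *Cd9* (0.64, adjusted p = 0.0164), *Lyz2*, lysozyme (0.55, adjusted p = 0.0192), *Trem2* (1.07, adjusted p = 0.0404) and *Spp1*, osteopontin (0.90, adjusted p = 0.0414) rose as well, as did the cholangiocyte genes *Pkhd1* (0.80, adjusted p = 0.00796) and *Epcam* (0.95, adjusted p = 0.0239). In HFCF the bile duct keratins *Krt19* (1.32, adjusted p = 0.0246) and *Krt7* (1.40, adjusted p = 0.0328) rose, among 3 of 6 called, against 6.79% of all genes, and 0 were called without HFCF WT replicate 1 or any HFCF liver labelled HuRHep-/-. For the difference between the diets 0 of 6 were called. In the 12 fits without 1 liver the number called over both diets ran from 1 to 8 for Kupffer cells, 1 to 6 for recruited macrophages and 1 to 5 for cholangiocytes. Without chow HuRHep-/- replicate 2 it was 1 for each of the 3 cell types. The highest numbers came without HFCF WT replicate 3 for Kupffer cells and without chow HuRHep-/- replicate 3 for cholangiocytes. Of sinusoidal endothelial markers 0 of 8 were called, with sums of 140.3 to 183.2, 132 to 171, 144 to 171 and 161 to 166 CPM. Neutrophil markers summed to 1.97 to 2.68, 2.12 to 3.34, 2.29 to 3.4 and 4.43 to 5.61 CPM and lymphocyte markers to 4.08 to 6.55, 4.89 to 7.46, 4.96 to 7.08 and 7.51 to 9.25, with 0 of 3 and 0 of 9 tested called over both diets. Without 1 liver that number ran from 0 to 2 for neutrophils and 0 to 1 for sinusoidal and for stellate cells, and stayed 0 for lymphocytes. With at least 10 counts in every library, 1 of 2 neutrophil and 1 of 8 sinusoidal markers were called over both diets. The most abundant of the lists without a call over both diets were at 0.18, adjusted p = 0.416 (*Dcn*) and -0.12, adjusted p = 0.301 (*Ecm1*) for stellate cells, and at -0.095, adjusted p = 0.529 (*Clec4g*) and -0.048, adjusted p = 0.776 (*Ptprb*) for sinusoidal cells, by limma. For neutrophils they were at 0.59, adjusted p = 0.0528 (*Csf3r*) and 0.40, adjusted p = 0.276 (*S100a9*), and for lymphocytes at -0.12, adjusted p = 0.831 (*Cd4*) and 0.51, adjusted p = 0.128 (*Cd79a*). No marker of these 7 lists that is in both tables was at 0 in all livers of a group.

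From chow to HFCF many of these markers rose. Among livers labelled HuRHep-/- 10 of 10 stellate cell, 8 of 9 recruited macrophage, 6 of 6 cholangiocyte and 5 of 10 Kupffer cell markers were called, all higher, against 19.7% of all genes. The list medians of the log2 fold change were 1.07, 2.12, 1.25 and 0.75. The number for stellate cells was 10 in each of the 12 fits without 1 liver and that for recruited macrophages 6 to 9. For cholangiocytes it was 2 without chow HuRHep-/- replicate 3 or HFCF HuRHep-/- replicates 1 or 3, and for Kupffer cells it was 8 without chow HuRHep-/- replicate 2 or HFCF HuRHep-/- replicate 3. In WT livers 4 of 10, 4 of 9, 0 of 6 and 3 of 10 were called, all higher, in the same order, against 11.3% of all genes, and without 1 liver the numbers ran from 2 to 9, 3 to 6, 0 to 1 and 1 to 7. For stellate and Kupffer cells the lowest numbers came without chow WT replicates 1 or 3 or HFCF WT replicates 1 or 3 and the highest without HFCF WT replicate 2, and for Kupffer cells it was also 1 without HFCF HuRHep-/- replicate 2, 6 without chow HuRHep-/- replicate 2 and 5 without HFCF HuRHep-/- replicates 1 or 3. *Ghr*, *Igf1*, *Igfals*, *Stat5b* and 16 of 18 male-biased genes were called lower from chow to HFCF in the same livers labelled HuRHep-/-. The part of these markers in the results on *Ghr*, *Igf1*, *Igfals*, *Stat5b* and the male-biased genes was not tested.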

How the data were processed

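Male mouse liver was sequenced, 3 livers in each of 4 groups. The authors deposited gene counts in separate tables for chow and HFCF. The study's methods, which cover the chow livers, name CLC Genomics Workbench, GRCm38.p6 and reads on the reverse strand, and the processing of the HFCF livers is not given in the sources used here. These counts are whole numbers written as text with separating commas, per the file headers and values, and 23 and 27 gene names had become dates. Replicates were deposited apart. Per the labels the builds are GRCm38.p6 and mm10.

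Both tables were joined by gene ID. TMM factors were written anew (trims of 0.3 and 0.05), CPM was put on a log2 scale with a pseudocount of 0.5, and genes with at least 10 counts in 3 libraries and 15 in all were kept. The main test was limma 3.58.1 with a trend in R 4.3.3, with Benjamini-Hochberg adjustment over all genes and a call at an adjusted p of at most 0.05. The count test named in the design was not used, and the log scale was used instead. The counts stand as text but are whole numbers once the commas are removed, so their form did not prevent such a test. Genotype was tested within each diet, over both diets as the mean of both within-diet effects, and as a difference between the diets. Diet was tested within each genotype. Fits of all 12 livers used the means of the 4 groups and no further term. Steps were tested on simulated data. The limma p-values set a difference against the spread between livers of the same group. For genotype within a diet only the livers of that diet entered the main fit, and otherwise all 12. Depth ran from 30071731 to 35949203 counts a library.

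Alternatives were other scaling factors, no filter or a filter of 10 counts in every library, a pseudocount of 2, voom weights, a replicate block within diets, all 12 livers in a single fit, a 1.5-fold change as well, the sum of *Stat5a* and *Stat5b*, and fits without 1 liver. Counts for gene lists under these alternatives, correlations within diets and a block across diets were added after seeing the data. The members and lists were chosen with earlier results of these data known. Beside the 9 genes and *Elavl1*, of each of 17 lists up to 4 genes were named, those with the smallest p by genotype among called genes with a mean of at least 50 normalized counts, or the 2 most abundant where none was called. The 3 genes most like *Ghr*, *Igf1* and *Socs2* were named too. Other genes named were chosen after their values were seen, and 1 gene that the rule names is not reported here. Gene positions and exon lengths came from GENCODE vM21 and promoter windows from RefSeq. Permutation tests of correlations used numpy 2.4.6 with 100000 resamples, or all permutations for n = 6, and ranks came from scipy 1.17.1. The exact permutation test of genotype took all splits of the livers within diets.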

Additional observations from a re-analysis of the deposited data

How the results depend on the processing

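Under settings that keep every liver, 391 estimates for the 9 genes kept their direction and their side of the threshold, 5 lost a call, 2 gained a call and 4 turned sign. The counts of the 9 genes called stayed within 1.5 times with RLE factors, other filters, another pseudocount and voom weights. Upper-quartile scaling left 0 of 9 called by genotype in HFCF. A 1.5-fold change as well left 0 in HFCF, 0 over both diets, 0 for diet in WT livers and 1 (*Igfals*) for diet in livers labelled HuRHep-/-. Without 1 liver the number called ranged from 0 to 1 by genotype in HFCF, 1 to 2 over both diets, 1 to 3 for diet in WT livers and 3 to 4 in livers labelled HuRHep-/-, and was 0 in each fit by genotype in chow and for the difference between the diets.

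Estimates that turned sign were those without a call. By genotype in HFCF upper-quartile scaling gave 0.0034 for *Igf1* and 0.036 for *Socs2*, and all 12 livers in a single fit gave 0.00022 for *Socs2*. The sum of *Stat5a* and *Stat5b* gave 0.032 over both diets, against -0.021 for *Stat5b*. Without 1 liver the log2 fold changes that turned sign ranged, by genotype in HFCF, from -0.092 to 0.11 for *Stat5a*, -0.092 to 0.025 for *Igf1*, -0.32 to 0.41 for *Socs2*, -0.31 to 1.16 for *Cish* and -1.49 to 0.31 for *Bcl6*. Over both diets the range was -0.061 to 0.021 for *Stat5b*, -0.65 to 0.093 for *Cish* and -0.89 to 0.080 for *Bcl6*, and in chow -1.07 to 0.75 for *Bcl6*. The difference between the diets ranged from -0.022 to 0.092 for *Jak2* and -1.46 to 0.48 for *Bcl6*. For diet in livers labelled HuRHep-/- it was -1.14 to 0.28 for *Cish* and -0.50 to 1.44 for *Bcl6*. The cause was not tested.

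The labels name nothing that livers with the same replicate number share beyond that number. Whether they also shared a batch or an order of sampling is not given. Deviations of same-numbered livers from their group means correlated at -0.030, 0.11 and -0.0033 in chow and 0.088, 0.19 and 0.087 in HFCF. With the replicate number within each diet as a block, 2 of 9 genes were called over both diets, *Ghr* and *Igfals* (adjusted p = 0.0494 from limma), and no other count of the 9 by genotype changed. Without 1 liver of the diet in question the numbers called over all genes ranged from 9 to 537 by genotype in chow and from 31 to 1304 in HFCF, and the block gave 341 calls in chow, against 572, and 1341 in HFCF, against 971. The diet comparisons cannot be estimated beside a block within diets. With the number as a block across the diets, added after seeing the data, 2 of 9 were called in WT livers (*Igf1* and *Stat5a*, the latter at adjusted p = 0.0245 from limma) and 3 in livers labelled HuRHep-/-, where *Stat5b* was at adjusted p = 0.0505. All 12 livers in a single fit gave 953 calls in chow and 1619 in HFCF. Upper-quartile scaling moved the calls by genotype in HFCF to 421 higher and 370 lower, from 407 and 564, and those for diet to 1958 and 1485 in WT livers, from 1643 and 1866, and to 3404 and 1956 in livers labelled HuRHep-/-, from 2868 and 2780. With 3 livers a group, only large changes of *Cish*, *Socs2* and *Bcl6* could be resolved.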
